A study of Mus musculus with 7 samples.

Results

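The genes described here are the mouse clustered histone genes, the protein-coding genes whose GENCODE M21 symbols begin with Hist1h, Hist2h, Hist3h or Hist4h. They were found by dropping the version suffix of each gene identifier and matching it to GENCODE M21. The annotation holds 67 such genes and 65 were found among the 48709 genes of the tables; the other 2 are not analysed here. Of the 65, 24 had a summed expected count of at least 20 over the 7 libraries and are accounted for one by one, and 41 fell below that total, of which 14 had no count in any library. Just inside the minimum stood Hist1h4c with 21.19 counts and Hist1h2bg with 22.38, and just outside it Hist1h2bn with 18.24 and Hist1h3f with 16.43.

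Clustered histone genes encode the canonical core histones H2A, H2B, H3 and H4, which form the nucleosome, and the linker histones H1, which bind the DNA where it enters and leaves the nucleosome. Their transcription rises at the start of S phase, when new DNA needs histones, and their mRNAs typically lack introns and a poly(A) tail. The mRNA instead ends just after a short stem-loop that the stem-loop binding protein Slbp recognises. Several of these genes are also known to yield polyadenylated transcripts that read past the stem-loop, in particular in cells that have left the cell cycle or differentiate.

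RNA came from supporting cells, which hold the hair cells of the hearing organ in place and do not sense sound themselves. The 3 groups were 2 libraries treated with TSA at 200 nM, 3 treated with GSK-343 at 10 µM and 2 given DMSO, the solvent. TSA (trichostatin A) inhibits histone deacetylases, and GSK-343 inhibits EZH2, the enzyme that methylates lysine residues of histone H3 in Polycomb repression. All groups shared postnatal day 1 mouse cochleae grown as organ cultures with EGF and FGF, treatment for 48 h, and sorting of GFP-positive cells; the strain and what drives GFP are not given in the sources used here. Nothing in the labels tells whether the replicates of a group came from different cultures or animals, and a p-value here covers the spread between these libraries alone.

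Summed expected counts were 2724381 and 2963228 in TSA, 3398893, 3818798 and 4248336 in GSK-343, and 5974230 and 5124247 in DMSO. The median gap between listed and effective gene length was 208.21 to 212.69 bases in the 5 treated libraries and 49 bases in both DMSO libraries, so the read layout differed and compound and layout cannot be told apart in any comparison with DMSO. The DMSO libraries also stood apart in RNA composition, although the labels name 1 library kit for all groups. The mitochondrial ribosomal RNA mt-Rnr1 took 0.0686% to 0.0965% of counts in TSA, 0.0195% to 0.0897% in GSK-343 and 7.80% to 8.37% in DMSO. Nuclear protein-coding genes took 78.2% to 85.5% in TSA, 86.3% to 93.4% in GSK-343 and 62.5% to 63.4% in DMSO, and 18346 to 19251, 15916 to 17278 and 25166 to 28754 genes had a count in the same 3 groups. The part of RNA composition in the histone results was not tested, and it cannot be told apart from the compounds in comparisons with DMSO. The TSA and GSK-343 libraries shared a layout, and their comparison is given first. The 21 markers of supporting cells were all detected and summed to 6447 to 8254 CPM (counts scaled to library totals that edgeR's TMM factors adjust) in TSA, 17030 to 19950 in GSK-343 and 15020 to 18240 in DMSO; the 12 hair cell markers summed to 635 to 2088 CPM in TSA, 448 to 1152 in GSK-343 and 296 to 377 in DMSO, and the 10 neuron markers to 727 to 746, 90.1 to 309.7 and 103 to 119 CPM in the same 3 groups. The 5 Schwann cell and glia markers summed to 168 to 188 CPM in TSA, 379 to 660 in GSK-343 and 118 to 122 in DMSO, and the 5 endothelial markers to 3.81 to 3.92, 2.83 to 6.01 and 12.6 to 21.1 CPM. The part of these cell types in the histone results was not tested. In bulk RNA, fewer cells of a type and less RNA per cell cannot be told apart.

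The stem-loop could be read from the annotated transcripts and is shown because it is what sets histone mRNAs apart from other messages. The search took GG and any 4 bases, a loop of 4 bases, and the reverse complement of the first 6, after the stop codon and on the transcript strand. An annotated stem-loop was found in 46 of the 67 genes; of the 21 others, 13 had models that end at the stop codon. Within the last 120 bases of a transcript such an inverted repeat occurred in 34.328% of the clustered histone genes and in 0.722% of 21884 other protein-coding genes. The examples below, from GENCODE M21 transcripts on mm10, have the 16 bases of stem and loop in capitals.
Hist1h1c: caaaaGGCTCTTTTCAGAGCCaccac
Hist1h1e: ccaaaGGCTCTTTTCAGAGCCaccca
Hist1h2be: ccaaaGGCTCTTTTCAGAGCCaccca
Hist3h2a: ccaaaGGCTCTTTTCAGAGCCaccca
Hist3h2ba: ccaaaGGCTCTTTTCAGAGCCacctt
Hist2h3c1: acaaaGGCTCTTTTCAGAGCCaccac
Hist1h4d: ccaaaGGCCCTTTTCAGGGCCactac
Hist1h4j: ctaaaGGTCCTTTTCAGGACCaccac
Hist4h4: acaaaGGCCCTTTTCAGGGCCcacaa

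The first 6 carry the stem GGCTCT, which was the stem of all 34 genes with a stem-loop outside class H4. Among the 12 H4 genes with one, 10 had GGCCCT, as Hist1h4d and Hist4h4 do, and 2 had GGTCCT, as Hist1h4j does; the second arm of the stem changes with the first. The loop TTTC was found in 35 of the 46. The printed windows lie at chr13:23739507-23739532 (plus strand, Hist1h1c), chr13:23621777-23621802 (minus, Hist1h1e), chr13:23585526-23585551 (minus, Hist1h2be), chr11:58955167-58955192 (plus, Hist3h2a), chr11:58949344-58949369 (plus, Hist3h2ba), chr3:96247322-96247347 (plus, Hist2h3c1), chr13:23581945-23581970 (plus, Hist1h4d), chr13:21735432-21735457 (plus, Hist1h4j) and chr6:136803993-136804018 (minus, Hist4h4), in each case 3′ of the coding sequence. The stem began 21 to 58 bases after the stop codon.

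Annotation beyond the stem-loop went with detection. Of the 24 genes with 20 counts or more, 16 had a model that extends over 100 bases past the stem-loop, against 6 of the 41 below that total. The tables list a length over 100 bases shorter than the longest GENCODE M21 transcript for 6 of these 16 and 5 of these 6, so the counts may not reach the annotated extension of those genes; 10 and 1 are left without them. The median listed length was 746 bases in the 24 and 463 bases in the 41, and the median GC content was 51.24% and 60.67%. These are descriptions of which genes had reads; a longer model also offers more positions for a read. Median uniqueness, the share of 50-base windows found in no other gene's transcripts, was 70.23% in the 24 and 39.58% in the 41.

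**Figure D1:**
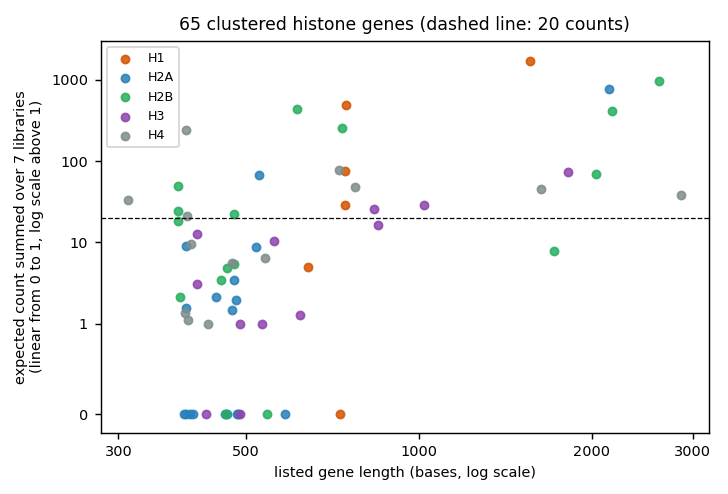
Listed gene length (horizontal axis, bases, log scale) against the expected count summed over the 7 libraries (vertical axis, linear up to 1 and log above) for the 65 clustered histone genes, coloured by histone class. The dashed line marks 20 counts; 24 genes lie above it, with a median length of 746 bases against 463 bases for the 41 below.

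The classes were unevenly represented. Detected at 20 counts or more were 4 of 6 H1 genes, 2 of 18 H2A genes, 8 of 16 H2B genes, 3 of 12 H3 genes and 7 of 13 H4 genes. By locus they were 15 of the 52 Hist1 genes on chromosome 13, 6 of the 10 Hist2 genes on chromosome 3, both Hist3 genes on chromosome 11 and the single Hist4 gene on chromosome 6. All clustered histone genes together held 0.0448% and 0.0366% of counts in TSA, 0.0107%, 0.0159% and 0.0160% in GSK-343, and 0.0200% and 0.0188% in DMSO.

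Per unit of length, the 8 genes with the highest mean TPM (a level scaled by length and library total) over the 7 libraries were Hist1h1c (95.5 TPM), Hist3h2ba (68.4), Hist1h1e (33.4), Hist1h4d (26.1), Hist1h2bc (25.5), Hist2h2be (24.3), Hist3h2a (23.6) and Hist1h4k (18.4), with Hist1h2be next at 18.1 TPM. Together the first 8 held 71.5% to 73.0% of the clustered histone counts in TSA, 85.2% to 89.5% in GSK-343 and 78.8% to 83.3% in DMSO. The gene with the largest share was Hist1h1c in both TSA libraries and in GSK-343 replicates 2 and 3, Hist2h2be in GSK-343 replicate 1, Hist1h1e in DMSO replicate 1 and Hist3h2a in DMSO replicate 2. Hist1h1c alone held 40.6% and 44.0% of these counts in TSA, 20.5%, 37.0% and 31.0% in GSK-343, and 6.52% and 12.8% in DMSO.

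**Figure D2:**
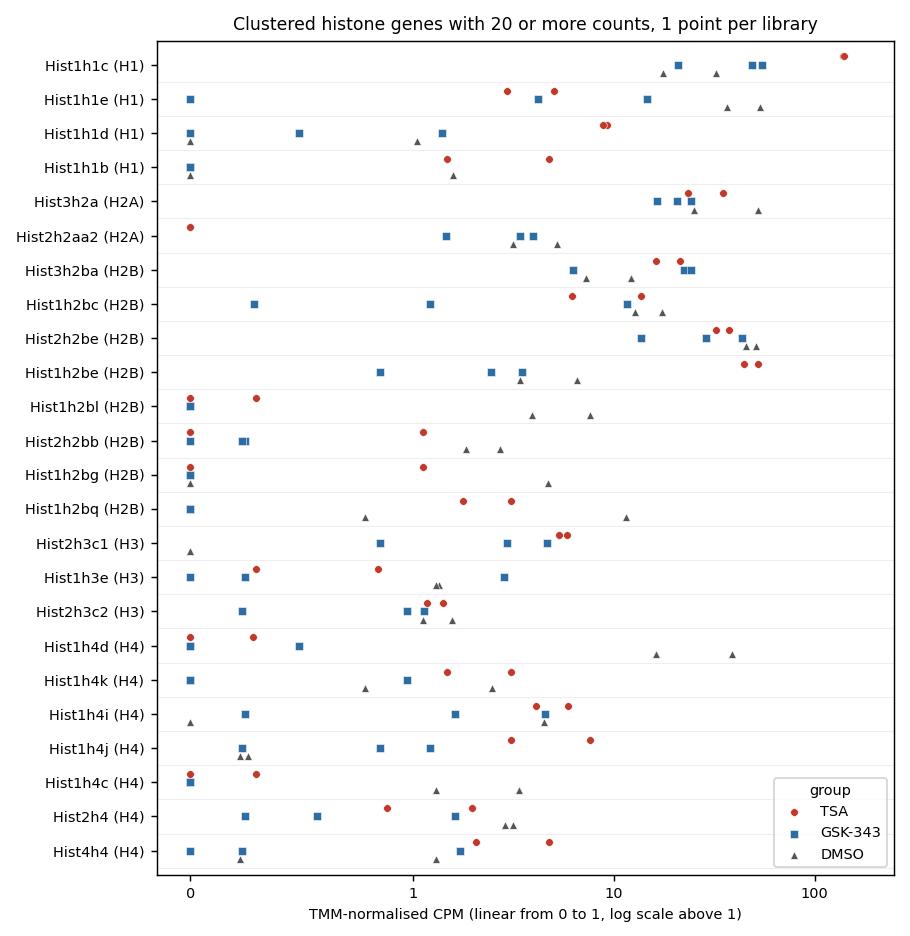
TMM-normalised CPM (horizontal axis, linear from 0 to 1 and log above 1) of the 24 clustered histone genes with 20 counts or more, grouped by histone class, with 1 point per library (circles TSA, squares GSK-343, triangles DMSO). Hist1h1c and Hist1h2be stand to the right in both TSA libraries, and Hist1h4d and Hist1h1e in both DMSO libraries.

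For the comparisons, expected counts were rounded and tested with edgeR's quasi-likelihood test in 1 model of all 7 libraries, with p-values adjusted by the Benjamini-Hochberg method over the 14907 genes that passed the filter on low counts. The filter kept 15 of the 24 genes. The 9 it left out were Hist1h4k, Hist1h1b, Hist1h3e, Hist1h2bg, Hist1h4c, Hist2h3c2, Hist2h4, Hist2h2bb and Hist4h4, and their values are given without a test. The comparisons of TSA and of GSK-343 with DMSO share the DMSO libraries, and all 3 share libraries in pairs.

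TSA against GSK-343 sets the 2 compounds side by side in libraries of the same layout. With TSA, 3 of the 15 tested genes were higher and 1 was lower, at an adjusted p under 0.05, against 10.7% of all tested genes called, 5.04% higher and 5.68% lower. Hist1h2be and Hist1h1c were the calls that rest on mostly unique sequence. Without TSA replicate 2, 1 gene was higher and 0 lower, and 162 genes were called in all, against 1598 with it. Also 0 genes were lower without TSA replicate 1, GSK-343 replicate 3 or either DMSO library. The median log2 fold change was 1.17 over the 15 genes and 0 over all tested genes, and 12 of the 15 had a fold change above 0; scaled to total counts, the medians were 1.47 and 0.20. The TSA libraries lay wholly above the GSK-343 libraries for 6 of the 15, against 23.5% of all tested genes, and wholly below for 1, against 22.9%.

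Hist1h2be encodes an H2B histone and had 44.3 and 52.5 CPM in TSA, 0.850, 2.43 and 3.47 CPM in GSK-343, and 6.51 and 3.39 CPM in DMSO. Both TSA libraries stood above every other library, and GSK-343 and DMSO overlapped. The log2 fold change was 4.39 ± 0.63 (SE) for TSA over GSK-343 (adjusted p = 0.00186) and 3.27 ± 0.69 for TSA over DMSO (adjusted p = 0.00345), while GSK-343 over DMSO gave −1.11 ± 0.63 (adjusted p = 0.177). Its annotated span overlaps Hist1h1e on the same strand, and reads in the overlap cannot be assigned by position.

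Hist1h1c encodes the linker histone H1.2 and had 138.6 and 139.9 CPM in TSA, 20.97, 54.5 and 48.8 CPM in GSK-343, and 17.5 and 32.3 CPM in DMSO. The TSA libraries again lay above all others, with little spread between them. Hist1h1c rose by 1.75 ± 0.42 (log2) over GSK-343 (adjusted p = 0.0193) and by 2.48 ± 0.49 over DMSO (adjusted p = 0.00237). The difference from GSK-343 did not pass without TSA replicate 2 (adjusted p = 0.103). GSK-343 over DMSO gave 0.74 ± 0.44 (adjusted p = 0.199) with overlapping libraries, and passed without GSK-343 replicate 1 (adjusted p = 0.0327) and under scaling to total counts (adjusted p = 0.0467).

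The promoters of both genes are shown because these were the clearest differences with TSA, from 250 bases before to 50 after each RefSeq start (GRCm38.p6). Capitals mark 4 motifs, searched on both strands. They were the TATA box (TATAAA), the CCAAT box, the octamer found in H2B promoters (ATTTGCAT), and the box found in H1 promoters (AAACACA). None of the 4 contains another. Hist1h1c lies at chr13:23738557-23738856 (plus strand). Hist1h2be has 2 RefSeq starts, at chr13:23585921-23586220 and, inside the annotated span of Hist1h1e, chr13:23621045-23621344 (both minus strand). Hist1h4d, which fell against DMSO, lies at chr13:23581318-23581617 (plus strand).
Hist1h1c: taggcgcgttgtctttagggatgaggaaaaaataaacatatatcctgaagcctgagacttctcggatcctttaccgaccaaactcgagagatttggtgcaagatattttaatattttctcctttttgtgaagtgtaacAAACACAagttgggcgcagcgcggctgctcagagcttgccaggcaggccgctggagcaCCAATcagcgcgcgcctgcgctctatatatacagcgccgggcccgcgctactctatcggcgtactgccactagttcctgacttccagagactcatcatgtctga
Hist1h2be start 1: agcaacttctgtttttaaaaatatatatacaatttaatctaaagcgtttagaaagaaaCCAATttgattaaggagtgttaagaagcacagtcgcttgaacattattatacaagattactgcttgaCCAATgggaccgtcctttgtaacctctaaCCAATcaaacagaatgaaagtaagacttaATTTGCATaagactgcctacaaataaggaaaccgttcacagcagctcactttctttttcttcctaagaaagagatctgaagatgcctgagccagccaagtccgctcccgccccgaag
Hist1h2be start 2: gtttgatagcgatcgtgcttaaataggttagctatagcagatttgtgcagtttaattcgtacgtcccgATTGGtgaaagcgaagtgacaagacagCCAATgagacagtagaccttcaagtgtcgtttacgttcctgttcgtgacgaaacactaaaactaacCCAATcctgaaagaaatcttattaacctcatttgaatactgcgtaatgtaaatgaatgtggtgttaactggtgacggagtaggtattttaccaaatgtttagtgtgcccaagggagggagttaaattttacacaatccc
Hist1h4d: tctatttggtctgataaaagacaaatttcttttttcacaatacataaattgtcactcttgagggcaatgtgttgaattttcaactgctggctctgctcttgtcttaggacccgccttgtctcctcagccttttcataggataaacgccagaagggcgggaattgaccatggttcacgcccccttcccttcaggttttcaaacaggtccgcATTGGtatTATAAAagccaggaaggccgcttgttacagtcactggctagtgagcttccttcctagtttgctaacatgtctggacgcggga

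The Hist1h1c window holds the H1 box and a CCAAT box and no TATAAA. The nearer Hist1h2be window holds CCAAT boxes and the octamer, a motif known from H2B promoters, and the more distant one CCAAT boxes only. The Hist1h4d window holds 1 CCAAT box on the other strand followed by TATAAA. Over the 62 clustered histone genes with a promoter in the table, 85.48% held CCAAT against 41.06% of 27025 genes, and 56.45% held TATAAA against 15.67%. CCAAT was found in all 6 H1, 18 H2A, 16 H2B and 10 H3 promoters and in 3 of 12 H4 promoters. The octamer was found in 7 H2A and 7 H2B promoters and in no promoter of the other classes, against 1.97% of all genes. The H1 box was found in 5 of 6 H1, 2 of 18 H2A and 2 of 16 H2B promoters, against 8.22% of all genes. A match says only that these letters are present.

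The other H1 genes did not follow Hist1h1c in every library. Hist1h1d, which encodes H1.3, had 9.24 and 8.80 CPM in TSA, 0, 0.487 and 1.39 CPM in GSK-343, and 0 and 1.04 CPM in DMSO. TSA lay above both other groups, but the log2 fold change of 3.74 ± 1.23 over GSK-343 missed the threshold (adjusted p = 0.0617) and that of 4.08 ± 1.48 over DMSO was just inside it (adjusted p = 0.0497). The first passed without DMSO replicate 1 or 2 (adjusted p = 0.0448 and 0.0474), and the second did not pass without DMSO replicate 1, TSA replicate 1 or TSA replicate 2 (adjusted p from 0.181 to 0.213). Hist1h1e, which encodes H1.4, had 5.04 and 2.93 CPM in TSA, 0, 14.6 and 4.16 CPM in GSK-343, and 53.2 and 36.5 CPM in DMSO. TSA and GSK-343 overlapped (log2 fold change −0.65 ± 1.06, adjusted p = 0.738), and both lay below DMSO.

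As a share of all H1 counts, Hist1h1c held 87.9% and 91.0% in TSA, 100.0%, 78.3% and 89.8% in GSK-343, and 24.2% and 45.6% in DMSO. Hist1h1e held 3.20% and 1.91% in TSA, 0, 20.98% and 7.66% in GSK-343, and 73.6% and 51.7% in DMSO. Per length, Hist1h1c had 256.63 and 215.96 TPM in TSA, 30.4, 71.5 and 59.4 TPM in GSK-343, and 13.1 and 21.5 TPM in DMSO, beside 23.4 and 11.3 TPM in TSA, 0, 48.1 and 12.7 TPM in GSK-343, and 85.8 and 52.6 TPM in DMSO for Hist1h1e. Hist1h1c was the higher of these 2 linker histone genes in every treated library and Hist1h1e in both DMSO libraries. Hist1h1b (H1.5), not tested, had 4.76 and 1.47 CPM in TSA, no count in GSK-343, and 1.57 and 0 CPM in DMSO.

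Among the remaining H2B and H2A genes with mostly unique sequence, no difference between TSA and GSK-343 passed the test. Hist2h2be had 32.2 and 37.3 CPM in TSA, 43.4, 13.6 and 28.9 CPM in GSK-343, and 45.4 and 51.1 CPM in DMSO. Hist3h2a had 35.01 and 23.5 CPM in TSA, 16.4, 24.1 and 20.6 CPM in GSK-343, and 25.2 and 52.4 CPM in DMSO. Both genes were detected in every library, and their libraries overlapped between the compounds. Their log2 fold changes for TSA over GSK-343 were 0.28 ± 0.46 (adjusted p = 0.738) and 0.52 ± 0.46 (adjusted p = 0.490). Hist3h2ba had 21.3 and 16.1 CPM in TSA, 6.23, 22.4 and 24.3 CPM in GSK-343, and 12.1 and 7.30 CPM in DMSO. Hist1h2bc had 13.7 and 6.16 CPM in TSA, 0.283, 1.22 and 11.6 CPM in GSK-343, and 17.3 and 12.8 CPM in DMSO. Hist3h2ba and Hist1h2bc passed in none of the 3 comparisons, with adjusted p-values from 0.170 to 0.961. GSK-343 replicate 3 decided this for Hist1h2bc. Without it, the log2 fold change was 3.66 for TSA over GSK-343 (adjusted p = 0.0415) and −4.22 for GSK-343 over DMSO (adjusted p = 0.00518). By limma on log2(TPM + 1), Hist3h2ba was higher than in DMSO with TSA and with GSK-343 (adjusted p = 0.0479 for GSK-343). With TSA it was also higher than in DMSO when the length trend was removed (lowest adjusted p of these 0.0235). Without GSK-343 replicate 1, Hist2h2be was lower with GSK-343 than with DMSO (log2 fold change −1.17, adjusted p = 0.0472).

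Of the H4 genes, Hist1h4j had 3.08 and 7.63 CPM in TSA, 0.850, 1.22 and 0.231 CPM in GSK-343, and 0.225 and 0.261 CPM in DMSO. TSA lay above both groups. The log2 fold change was 2.76 ± 1.09 over GSK-343 (adjusted p = 0.112) and 4.30 ± 1.41 over DMSO (adjusted p = 0.0326), which did not pass without either DMSO library or either TSA library (adjusted p from 0.129 to 0.401). Hist1h4i had 5.88 and 4.11 CPM in TSA, 4.53, 0.243 and 1.62 CPM in GSK-343, and 4.49 and 0 CPM in DMSO, and passed in no comparison. The untested Hist4h4, alone at its locus, had 4.76 and 2.05 CPM in TSA, 0, 1.70 and 0.231 CPM in GSK-343, and 0.225 and 1.30 CPM in DMSO. Its TSA libraries lay above the other 5.

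**Figure D3:**
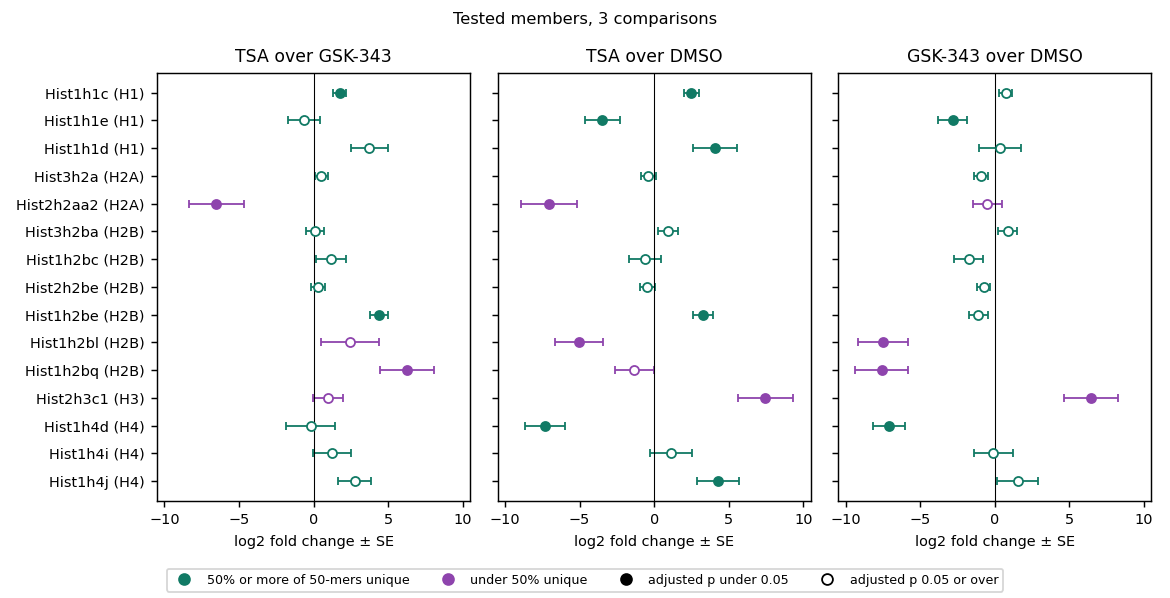
Log2 fold change with its standard error (horizontal axis) of the 15 tested clustered histone genes for TSA over GSK-343, TSA over DMSO and GSK-343 over DMSO. Filled points have an adjusted p under 0.05, and purple marks genes with under 50% of 50-base windows unique; Hist1h1c and Hist1h2be are filled and positive in both TSA panels, and Hist1h4d is filled and negative in both DMSO panels.

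TSA against DMSO asks what deacetylase inhibition changed relative to solvent, across the difference in layout. With TSA, 5 of the 15 tested genes were higher and 4 lower, against 29.2% of all tested genes called, 13.1% higher and 16.1% lower. The higher genes were Hist1h1c, Hist1h2be, Hist1h1d, Hist1h4j and Hist2h3c1, and the lower ones Hist1h4d, Hist1h1e, Hist1h2bl and Hist2h2aa2. The genes moved in both directions within a class, with a median log2 fold change of −0.41 against −0.055 over all tested genes. The median was 1.39 when DMSO replicate 1 was left out, with 20 genes then tested, and 0.32 (all genes 0.65) under scaling to total counts, where 5 genes were higher and 2 lower. Higher genes numbered 2 without DMSO replicate 1 and 3 without either TSA library, and lower ones 2 without DMSO replicate 1 and 1 without DMSO replicate 2 or either TSA library. The libraries did not overlap for 6 genes above and 5 below, against 33% and 35.6% of all tested genes.

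GSK-343 against DMSO asks the same of EZH2 inhibition. With GSK-343, 1 of the 15 was higher and 4 were lower, against 39.6% of all tested genes called, 18.1% higher and 21.5% lower. The higher gene was Hist2h3c1 and the lower ones Hist1h4d, Hist1h2bl, Hist1h2bq and Hist1h1e. Some of these entered through the group where they are high. Of the 237.34 counts of Hist1h4d, 172.58 and 61.76 were in the DMSO libraries, and of the 50.08 of Hist1h2bl, 33.7 and 14.64. Hist2h3c1 had 0 and 0.13 counts in DMSO and entered through the treated libraries. The median log2 fold change was −0.75 over the 15 and −0.042 over all tested genes, and −0.30 and 0.42 under scaling to total counts, where 2 of the 15 were higher and 3 lower. Higher genes numbered 0 without DMSO replicate 1 and 2 without GSK-343 replicate 1. The GSK-343 libraries lay wholly below DMSO for 7 of the 15, against 32.1% of all tested genes, and wholly above for 1, against 28.6%.

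Hist1h4d encodes histone H4 and showed the smallest adjusted p of the 15 in both comparisons with DMSO. It had 0.280 and 0 CPM in TSA, 0, 0.487 and 0 CPM in GSK-343, and 38.9 and 16.2 CPM in DMSO. The 5 treated libraries held 3 counts together and both DMSO libraries stood far above them. The log2 fold change was −7.30 ± 1.33 for TSA (adjusted p = 0.00138) and −7.12 ± 1.08 for GSK-343 (adjusted p = 0.000211). TSA over GSK-343 gave −0.18 ± 1.65 (adjusted p = 0.972). The tables list 393 bases for the gene against a 1138-base GENCODE M21 transcript, so they were made with another model of it.

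Hist1h1e, whose values stand above, fell by 3.48 ± 1.18 on the log2 scale with TSA (adjusted p = 0.0443) and by 2.83 ± 0.97 with GSK-343 (adjusted p = 0.0373). Both calls were lost under scaling to total counts (adjusted p = 0.0877 and 0.0746) and without any one of DMSO replicates 1 and 2, TSA replicates 1 and 2, and GSK-343 replicate 3 (adjusted p from 0.0653 to 0.325). Because DMSO was quantified in another layout, whether these falls belong to the compounds or to the libraries cannot be told apart.

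The remaining calls rest on genes that share most of their 50-base windows with other genes and are uncertain. Hist2h3c1, an H3 gene with no unique 50-base window, had 5.32 and 5.87 CPM in TSA, 0.850, 2.92 and 4.62 CPM in GSK-343, and 0 in both DMSO libraries. It was called higher with TSA (adjusted p = 0.00887), at least 7.68-fold, and with GSK-343 (adjusted p = 0.0114), at least 3.84-fold, where DMSO is set to a floor of 3 counts per library. GSK-343 replicate 1 itself held 3 counts, so the bound for GSK-343 rests on replicates 2 and 3. Summed with Gm20634, the gene that shares its windows, Hist2h3c1 had 5.32 and 5.91 CPM in TSA, 0.850, 2.91 and 4.57 CPM in GSK-343, and 47.4 and 70.7 CPM in DMSO. Without DMSO replicate 1 both calls were lost (adjusted p = 0.0521 and 0.0538). The direction against DMSO turns round in the sum. Nearly all of its DMSO counts were those of Gm20634, and all of its counts in the treated libraries were those of Hist2h3c1. Whether these reads fell in the shared windows was not tested.

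Hist2h2aa2, an H2A gene also without a unique window, had no count in TSA, 3.40, 1.46 and 3.93 CPM in GSK-343, and 3.14 and 5.21 CPM in DMSO. It was called lower with TSA, at least 3.41-fold against GSK-343 (adjusted p = 0.0374) and at least 4.86-fold against DMSO (adjusted p = 0.0131). Summed with the 4 genes that share its windows, it had 5.88 and 1.17 CPM in TSA, 3.97, 11.9 and 7.63 CPM in GSK-343, and 51.9 and 83.9 CPM in DMSO. Gm20634 is among these 4 genes as well and gave 47.4 and 70.7 CPM of the DMSO values. In the sum TSA and GSK-343 overlapped. Without TSA replicate 1 or 2, DMSO replicate 2 or, against GSK-343 alone, DMSO replicate 1 or GSK-343 replicate 3, the calls of Hist2h2aa2 were lost (adjusted p from 0.0525 to 0.314).

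Hist1h2bq, an H2B gene with 2.68% unique windows, had 3.08 and 1.76 CPM in TSA, no count in GSK-343, and 11.5 and 0.782 CPM in DMSO. It was called higher with TSA than with GSK-343, at least 3.19-fold (adjusted p = 0.0452), and lower with GSK-343 than with DMSO, at least 8.07-fold (adjusted p = 0.00477). Together with its copy Hist1h2br it had 3.05 and 1.65 CPM in TSA, 0.283, 0 and 1.53 CPM in GSK-343, and 11.4 and 0.722 CPM in DMSO, so that GSK-343 and DMSO overlapped. Sums use unrounded expected counts and single genes rounded ones, so a sum can lie slightly below the gene alone. The call for TSA over GSK-343 was lost when any library but DMSO replicate 2 was left out (adjusted p from 0.0639 to 0.147), and that for GSK-343 over DMSO without DMSO replicate 1 (adjusted p = 0.155). DMSO replicate 2 held 2.63 counts, under the floor of 3, so the bound rests on DMSO replicate 1 and there is none without it. Hist1h2bl, another H2B gene with 17.2% unique windows, had 0 and 0.293 CPM in TSA, no count in GSK-343 after rounding, and 7.64 and 3.91 CPM in DMSO. Its log2 fold change was −5.04 ± 1.63 for TSA over DMSO (adjusted p = 0.0331), a call lost without any one of the TSA and DMSO libraries (adjusted p from 0.0797 to 0.297). GSK-343 was at least 7.62-fold lower than DMSO (adjusted p = 0.00357). No single gene shared over 71.99% of the 50-base windows of Hist1h2bl, and 89.6% of its 200-base windows were unique. Summed with the 7 genes that share at least 50% of its windows, it had 18.9 and 8.21 CPM in TSA and 0.567, 1.22 and 13.1 CPM in GSK-343. The sum was 36.3 and 22.7 CPM in DMSO, above both treated groups.

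**Figure D4:**
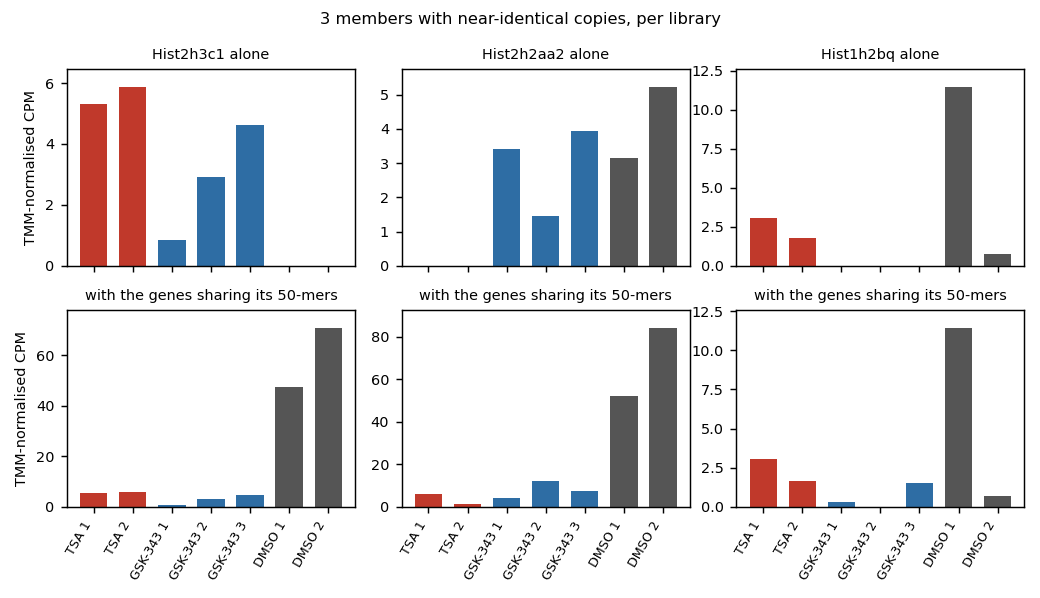
TMM-normalised CPM (vertical axes, which start at 0 and differ in scale) per library for Hist2h3c1, Hist2h2aa2 and Hist1h2bq alone (top) and summed with the genes that share at least 50% of their 50-base windows (bottom), with TSA, GSK-343 and DMSO from left to right. Hist2h3c1 is at 0 in DMSO alone but highest there in the sum.

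The untested genes were low throughout when each was taken alone. Hist1h4k, an H4 gene, had 3.08 and 1.47 CPM in TSA, 0, 0.974 and 0 CPM in GSK-343, and 2.47 and 0.782 CPM in DMSO. Its high place by TPM goes with a listed length of 312 bases, the shortest of the 24. Hist2h4, Hist2h3c2, Hist1h3e, Hist1h2bg, Hist1h4c and Hist2h2bb reached at most 4.69 CPM in any library. Summed with the genes that share at least 50% of its 50-base windows, Hist2h2bb had up to 36.97 CPM (TSA replicate 1). Hist2h3c2 had up to 72.3 CPM (DMSO replicate 2) in such a sum, which includes Gm20634. Hist1h2bg had counts in 2 libraries and Hist1h4c in 3.

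Sums over a class do not depend on how reads were shared between copies within it, but leave out copies that are no member, such as Gm20634 and Gm42743. Gm20634 alone had 47.4 and 70.7 CPM in DMSO and no count in TSA or GSK-343. Comparisons of these sums with DMSO therefore depend on leaving it out. Over the 65 genes the summed CPM was 341.7 and 317.9 in TSA, 102.5, 147.4 and 157.3 in GSK-343, and 268.7 and 251.3 in DMSO. The groups did not overlap, and TSA averaged 2.43 times GSK-343 and 1.27 times DMSO, while GSK-343 averaged 0.522 times DMSO. Scaled to total counts in place of TMM, these ratios were 2.87, 2.09 and 0.730, still without overlap. Without Hist1h1c and Hist1h2be the sums were 158.7 and 125.4 in TSA, 80.7, 90.6 and 105.0 in GSK-343, and 244.7 and 215.6 in DMSO. TSA then stood between the other groups, at 1.54 times GSK-343 and 0.617 times DMSO. Scaled to total counts, that last ratio was 1.02 with overlapping libraries. These sums are descriptions without a test.

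By class, H1 summed to 157.7 and 153.7 CPM in TSA, 20.97, 69.6 and 54.3 in GSK-343, and 72.4 and 70.6 in DMSO, and was highest in TSA. Hist1h1c held 87.9% and 91.0% of the H1 counts in TSA, 78.3% to 100.0% in GSK-343 and 24.2% to 45.6% in DMSO. The place of TSA above the other groups rested on that gene. H2B summed to 118.2 and 114.2 CPM in TSA, 51.0, 39.8 and 70.1 in GSK-343, and 104.6 and 91.7 in DMSO, with TSA and DMSO both above GSK-343. Of these sums, Hist1h2be gave 44.3 and 52.5 CPM in TSA, 0.850 to 3.47 in GSK-343 and 3.39 to 6.51 in DMSO. Among the members, the separation of TSA from GSK-343 and its place above DMSO in H2B rested on Hist1h2be. The H2B sum leaves out Gm42743, which shares at least 50% of the 50-base windows of Hist2h2bb. Gm42743 had 35.6 and 29.9 CPM in TSA, 2.27, 19.96 and 9.02 in GSK-343, and 9.66 and 15.9 in DMSO. How far the separation in H2B depends on leaving it out was not tested. H4 summed to 21.6 and 17.0 CPM in TSA, 5.95, 5.36 and 3.70 in GSK-343, and 53.5 and 24.8 in DMSO, with DMSO highest, GSK-343 lowest and no overlap. Without Hist1h4d, H4 summed to 21.29 and 17.01 CPM in TSA, 5.95, 4.87 and 3.70 in GSK-343, and 14.68 and 8.61 in DMSO, so that TSA was highest and the place of DMSO rested on that gene. Under scaling to total counts TSA and DMSO overlapped for H4, as did GSK-343 and DMSO for H1, H2A, H2B and H3. H2A ranged from 23.9 to 35.9 CPM in TSA, 19.8 to 28.4 in GSK-343 and 30.0 to 58.9 in DMSO, and H3 from 8.40 to 9.08 CPM in TSA, 4.34 to 4.86 in GSK-343 and 5.42 to 8.26 in DMSO. The H3 sum leaves out Gm20634, which alone was higher than that sum in both DMSO libraries. For H2A the ratio of TSA to DMSO was 0.674, and 1.12 under scaling to total counts, with overlap both times.

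**Figure D5:**
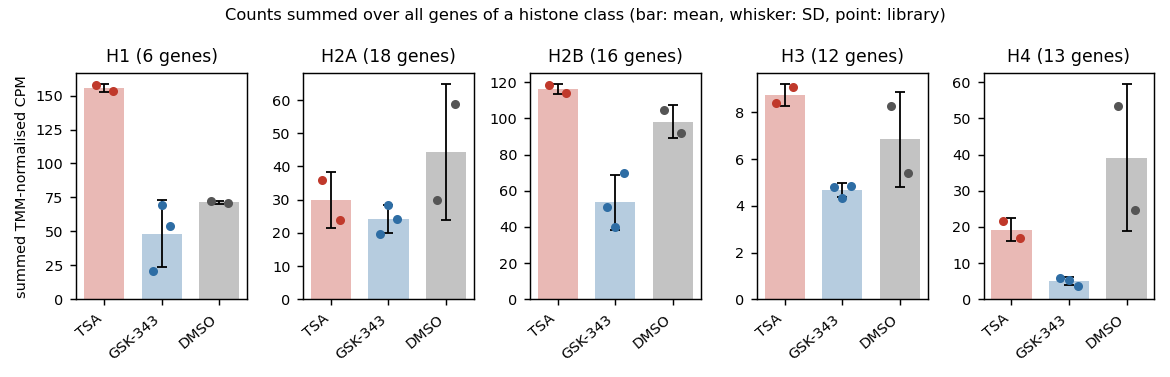
TMM-normalised CPM summed over all genes of each histone class (vertical axes, which start at 0 and differ in scale) for TSA (2 libraries), GSK-343 (3) and DMSO (2); bars are means, whiskers SD and points libraries. H1 is highest in TSA (157.7 and 153.7 CPM) and H4 in DMSO (53.5 and 24.8 CPM).

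The locus sums differed between loci. The 52 Hist1 genes summed to 238.6 and 231.3 CPM in TSA, 30.6, 79.7 and 72.8 in GSK-343, and 174.5 and 126.4 in DMSO. In TSA, Hist1h1c gave 138.6 and 139.9 CPM of this sum and Hist1h2be 44.3 and 52.5 CPM. The place of TSA above DMSO at Hist1 rested on these genes. The 10 Hist2 genes summed to 42.0 and 45.2 CPM in TSA, 49.2, 19.5 and 39.5 in GSK-343, and 56.7 and 63.9 in DMSO. TSA stood apart from GSK-343 at the Hist1 locus, where it averaged 3.85 times GSK-343, and overlapped it at Hist2. The Hist2 result depended on the scaling. Scaled to total counts, TSA averaged 1.43 times GSK-343 at Hist2 without overlap, and its ratio to DMSO turned to 1.19, against 0.722 with TMM, without overlap in either. Both Hist3 genes summed to 56.4 and 39.5 CPM in TSA, 22.7, 46.6 and 44.7 in GSK-343, and 37.3 and 59.8 in DMSO. All groups overlapped there with TMM. Scaled to total counts, TSA averaged 1.64 times DMSO at Hist3 without overlap.

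The replication-independent histone variants, which can replace the canonical histones outside S phase, were compared through the same fit. Of 11 tested, TSA against GSK-343 gave 0 higher and 1 lower by edgeR's test, with 6 of the 11 at an unadjusted p under 0.05, against 10.7% of all tested genes called and 27.9% at that unadjusted p. The lower gene was H1fx, a linker histone variant, with 6.16 and 9.39 CPM in TSA, 44.8, 36.3 and 27.3 CPM in GSK-343, and 0.225 and 0.521 CPM in DMSO (adjusted p = 0.0236 for TSA over GSK-343). Against DMSO, 5 variants were higher and 0 lower with TSA, and 4 were higher and 1 lower with GSK-343, which is 45.5% called in each, against 29.2% and 39.6% of all tested genes. H3f3a, which encodes the replacement histone H3.3, had 738.5 and 1021 CPM in TSA, 1064, 727 and 969.7 CPM in GSK-343, and 140.8 and 144.7 CPM in DMSO. Its log2 fold change over DMSO was 2.62 ± 0.35 with TSA (adjusted p = 0.000147) and 2.69 ± 0.34 with GSK-343; it was −0.07 ± 0.30 for TSA over GSK-343 (adjusted p = 0.927).

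The second H3.3 gene, H3f3b, rose with TSA over DMSO by 1.61 ± 0.37 (adjusted p = 0.00603), as did the linker variant H1f0, typical of differentiated cells, by 1.75 ± 0.43 (adjusted p = 0.00778) and the H2A.Z-type variant H2afv by 2.32 ± 0.44 (adjusted p = 0.00185). For TSA over GSK-343, H3f3b and H1f0 did not pass with TMM. Scaled to total counts, they rose by 1.16 and 1.32 (adjusted p = 0.0352 and 0.0375 by edgeR's test). In 17 and 15 of 21 alternatives they did not pass there. H2afv also rose with GSK-343 over DMSO, by 2.25 ± 0.42, as did H2afy, which encodes macroH2A1, by 1.21 ± 0.32 (adjusted p = 0.00832). The centromeric H3 variant gene Cenpa fell with GSK-343 over DMSO by 2.61 ± 0.94 (adjusted p = 0.0381), with 1.70, 0.730 and 0.694 CPM in GSK-343 against 5.84 and 7.04 CPM in DMSO. The Cenpa call was lost when any library but GSK-343 replicate 1 was left out (adjusted p from 0.0806 to 0.127) and under scaling to total counts (adjusted p = 0.0791). H2afz, which encodes H2A.Z, passed in no comparison (adjusted p from 0.244 to 0.789). Among the alternatives, it was higher with TSA than with DMSO under scaling to total counts (1.18, adjusted p = 0.023) and by limma on log2(TPM + 1). It was also higher with TSA than with GSK-343 when the length trend was removed (adjusted p = 0.0452).

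Of the 22 tested genes that transcribe, process or degrade histone mRNA, 0 were higher and 2 lower with TSA than with GSK-343, 1 higher and 2 lower with TSA than with DMSO, and 4 higher and 6 lower with GSK-343 than with DMSO. These are 9.09%, 13.6% and 45.5% called, against 10.7%, 29.2% and 39.6% of all tested genes. In the first of these, 5 of the 22 had an unadjusted p under 0.05, against 27.9% of all tested genes. Slbp itself had 24.1 and 43.1 CPM in TSA, 39.1, 29.7 and 34.5 CPM in GSK-343, and 30.6 and 42.5 CPM in DMSO. The groups overlapped, and its log2 fold changes were −0.04 ± 0.41 for TSA over GSK-343, −0.12 ± 0.45 for TSA over DMSO and −0.085 ± 0.411 for GSK-343 over DMSO. By limma on log2(TPM + 1), Slbp in TSA over DMSO gave 1.123 (adjusted p = 0.0494). Npat, the coactivator of histone gene transcription, had 34.2 and 53.7 CPM in TSA, 30.3, 28.96 and 24.1 CPM in GSK-343, and 61.3 and 51.4 CPM in DMSO, and fell with GSK-343 over DMSO by 1.02 ± 0.38 (adjusted p = 0.0419), with the sign turned when the GC and length trend was removed (0.81, adjusted p = 0.0879). That call was also lost when any library but GSK-343 replicate 1 was left out (adjusted p up to 0.197).

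The called genes of this list with up to the 4 smallest adjusted p-values in a comparison were Nelfe, Srrt, Ncbp1, Upf1, Gon4l and Tut7. Nelfe, a subunit of the negative elongation factor, had 17.6 and 14.96 CPM in TSA, 114.5, 41.9 and 74.7 CPM in GSK-343, and 6.96 and 11.2 CPM in DMSO (adjusted p = 0.0123 for TSA over GSK-343). Srrt, which encodes the cap-associated protein ARS2, was the other gene lower with TSA (adjusted p = 0.0491). Ncbp1, the large subunit of the nuclear cap-binding complex, had 111.5 and 191.5 CPM in TSA, 179.1, 88.8 and 101.7 CPM in GSK-343, and 19.1 and 24.0 CPM in DMSO. Upf1, a helicase of mRNA decay, fell by 2.185 ± 0.578 on the log2 scale with TSA over DMSO and fell by 2.65 ± 0.51 with GSK-343 over DMSO. Gon4l, a nuclear regulator of transcription, fell with TSA over DMSO by 1.48 ± 0.45, and Tut7, a terminal uridylyltransferase, with GSK-343 over DMSO by 3.02 ± 0.53.

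Histone chaperones escort histones to and from DNA. Of 22 tested, 1 was higher and 3 lower with TSA than with GSK-343, 2 higher and 3 lower with TSA than with DMSO, and 6 higher and 6 lower with GSK-343 than with DMSO. These are 18.2%, 22.7% and 54.5% called, against 10.7%, 29.2% and 39.6% of all tested genes. Supt16, a subunit of the FACT complex, had 44.8 and 67.5 CPM in TSA, 25.2, 12.4 and 14.3 CPM in GSK-343, and 134.1 and 117.3 CPM in DMSO. Nap1l4, a nucleosome assembly protein, had 217.1 and 141.7 CPM in TSA, 786.0, 427.4 and 557.5 CPM in GSK-343, and 82.7 and 63.1 CPM in DMSO. For both the libraries of TSA lay between those of the other groups. Hjurp, the chaperone of Cenpa, and Set, an inhibitor of histone acetylation, were the other chaperone genes lower with TSA (adjusted p = 0.0235 and 0.0299). Npm1, Atrx and Anp32e were lower and Rbbp7 higher with TSA than with DMSO, and Npm1 and Atrx were lower with GSK-343 than with DMSO too.

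S phase genes were read beside the histone genes because histone transcription is tied to DNA synthesis. Of 39 tested, 5 were higher and 0 lower with TSA than with GSK-343, which is 12.8% called, near the 10.7% of all tested genes; the median log2 fold change was 0.41. Ccne1, which encodes cyclin E1, an activator of S phase entry and of Npat, had 70.3 and 79.8 CPM in TSA, 10.8, 9.98 and 13.4 CPM in GSK-343, and 0.449 and 2.09 CPM in DMSO. It rose by 2.72 ± 0.48 over GSK-343 (adjusted p = 0.00473) and by 5.89 ± 0.68 over DMSO. Prim1, a primase subunit, had 8.40 and 22.0 CPM in TSA, 0, 0.974 and 1.62 CPM in GSK-343, and 6.29 and 8.86 CPM in DMSO. Rrm2, a ribonucleotide reductase subunit, had 3.36 and 6.16 CPM in TSA and at most 0.243 CPM in any other library, and Cdt1, a replication licensing factor, had 3.92 and 5.87 CPM in TSA, 0.283, 0.243 and 0 CPM in GSK-343, and 1.80 and 0.261 CPM in DMSO.

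Against DMSO, 5 S phase genes were higher and 1 lower with TSA, and 5 higher and 4 lower with GSK-343, which is 15.4% and 23.1% called, below the 29.2% and 39.6% of all tested genes. With TSA, E2f1, a transcription factor of the G1/S switch, was at least 7.46-fold higher (adjusted p = 0.00687), and Pole, the catalytic subunit of DNA polymerase epsilon, had 60.2 and 11.7 CPM in TSA against 340.7 and 232.3 CPM in DMSO (adjusted p = 0.00700). With GSK-343, Cdk2 rose by 2.17 ± 0.50 and the helicase subunit gene Mcm7 by 2.37 ± 0.59, while the proliferation marker Mki67 fell by 3.88 ± 0.96 (adjusted p = 0.00515). Mki67 had 2.52 and 4.11 CPM in TSA, 0.850, 0.730 and 0.231 CPM in GSK-343, and 10.3 and 8.08 CPM in DMSO. Pcna and Top2a, also markers of cycling cells, passed in no comparison, with adjusted p-values from 0.225 to 0.724. By limma on log2(TPM + 1), Pcna passed against DMSO with TSA (adjusted p = 0.0313) and with GSK-343 (adjusted p = 0.0284).

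The calls of named genes on these 4 lists numbered 45 over the 3 comparisons, and 22 held in all alternatives in which the gene was tested. For TSA over GSK-343, 0 of 11 held. Without TSA replicate 2, 10 were lost and Rrm2 did not reach the filter on low counts, so it was not tested. Without TSA replicate 1, H1fx, Cdt1, Hjurp, Rrm2 and Set were lost (adjusted p from 0.119 to 0.196). GSK-343 replicate 3 also decided Cdt1, Hjurp, Rrm2, Set and Srrt (adjusted p from 0.075 to 0.0997 without it), and GSK-343 replicate 2 decided Cdt1, H1fx, Srrt and Supt16 (adjusted p from 0.0521 to 0.109). Without DMSO replicate 1 Cdt1 and Set were lost (adjusted p = 0.0570 and 0.0516), and Set also without DMSO replicate 2 (adjusted p = 0.0510).

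For TSA over DMSO, 9 of 16 held. H3f3b and H1f0 were lost without TSA replicate 2 or DMSO replicate 2 (adjusted p from 0.0598 to 0.106), and Gon4l without either TSA library or either DMSO library (adjusted p from 0.0704 to 0.149). Upf1 was lost without either TSA library (adjusted p = 0.0537 and 0.0910), and Rbbp7 without TSA replicate 2 or DMSO replicate 1 (adjusted p = 0.0752 and 0.0557). Rrm2 was lost without TSA replicate 1 or either DMSO library (adjusted p from 0.0887 to 0.124), and Pole without DMSO replicate 1 (adjusted p = 0.0530). Gon4l and Upf1 were also lost under scaling to total counts (adjusted p = 0.194 and 0.0685).

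For GSK-343 over DMSO, 13 of 18 held, among them H3f3a, H2afv, H1fx, Ncbp1 and Upf1. Beside Cenpa and Npat, H2afy and Mcm7 were lost without DMSO replicate 1 (adjusted p = 0.0838 and 0.0737). Mki67 was lost when the trend with length was removed (adjusted p = 0.0639).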

How the data were processed

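RNA of sorted supporting cells was sequenced in 7 libraries. The submitters' processing notes name STAR, RSEM, DESeq2 and mm10; versions and the annotation release are not given in the sources used here. The deposited tables hold RSEM's expected counts, which share ambiguous reads between genes, and TPM, which the authors' RSEM run scaled by effective length, per the file headers. The genes' listed lengths are the authors' too.

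Of 48709 gene identifiers, 48349 matched GENCODE M21. Members and gene lists were chosen with earlier results of these data known. Expected counts were rounded for edgeR 4.0.16 (R 4.3.3): filterByExpr, TMM scaling and a robust quasi-likelihood fit on treatment group, with 4 residual degrees of freedom and a biological coefficient of variation of 0.43. Each pair of groups was compared at an adjusted p of 0.05. CPM are TMM-normalised, from rounded counts for single genes and from unrounded counts for sums. A level of 3 counts corresponds to 0.674 to 0.880 CPM, and floors cover counting error only. The procedure was also run on simulated counts drawn from the same mean levels in all libraries, apart from the genes changed on purpose. Those counts lack the layout and composition differences of DMSO, and no support is drawn from them. Replicates of a group differed by more than sampling noise. Uniqueness was computed from GENCODE M21 transcripts, which differ by over 100 bases from the listed length in 7 of the 24 genes, so it is approximate.

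Named were all members with 20 counts, the 8 highest by TPM, up to 8 called members per direction, and up to 4 called genes per list plus 10 fixed genes. Alternatives covered scaling, filters, tests, thresholds, trends in length and GC content, and leaving out each library.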

Additional observations from a re-analysis of the deposited data

How the results depend on the processing

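No called clustered histone gene changed direction under any alternative; of the genes beside them, Slbp (TSA over DMSO) was 1.123 by limma and Npat (GSK-343 over DMSO) 0.81 with the GC and length trend removed, against the sign of the values reported. Called in all alternatives in which they were tested were Hist1h2be with TSA against both groups, Hist1h1c with TSA against DMSO, Hist1h4d in both comparisons with DMSO and Hist1h2bl with GSK-343 against DMSO. Counts of called histone genes depended on the setting, and the causes were not tested. For TSA over GSK-343, 5 were higher without a filter and 1 at an adjusted p under 0.01; 0 were lower at that threshold, with 50 counts required in 2 libraries, and with the GC and length trend removed. For TSA over DMSO, higher genes numbered 2 with the 50-count filter, 3 by DESeq2's Wald test, 8 by limma on log2(TPM + 1) and 3 at 0.01. Lower ones numbered 2 under total count scaling, with the 50-count filter and with the length trend, or GC and length trend, removed, and 1 at 0.01. The median was 0.804 by limma. For GSK-343 over DMSO, higher genes numbered 2 under total count scaling, 3 by limma, and 0 with the 50-count filter and at 0.01; lower ones numbered 2 with the 50-count filter. The 50-count filter left 8 of the genes to test. The GC and length correction was added after seeing the data.

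Leaving out each library in turn gave 1 to 4 higher and 0 to 1 lower for TSA over GSK-343, with a median of 0.70 to 1.56. It gave 2 to 5 higher and 1 to 4 lower for TSA over DMSO, with a median of −0.95 to 1.39. It gave 0 to 2 higher and 3 to 5 lower for GSK-343 over DMSO, with a median of −0.96 to −0.42. Over all genes, scaling to total counts moved the split of calls from TMM's 752 higher and 846 lower to 1020 and 431 for TSA over GSK-343, from 1957 and 2402 to 3871 and 1307 for TSA over DMSO, and from 2695 and 3208 to 3948 and 2273 for GSK-343 over DMSO. Without each library in turn, calls for TSA over GSK-343 ranged from 162 to 2111. A group left with 1 library was assumed to vary like the others.

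Replicate numbers showed no pairing of the samples: deviations of same-numbered libraries correlated at −0.094 to 0.04. In a group of 2 libraries the deviations mirror each other, so these values cannot tell whether libraries shared a culture or batch. With the replicate number as a block, TSA over GSK-343 gave 3 higher and 0 lower with a median of 2.04, TSA over DMSO 4 higher and 2 lower, and GSK-343 over DMSO 0 higher and 4 lower. At totals of 2724381 to 5974230 counts per library, genes under 20 summed counts were not compared.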
